A study of Mus musculus with 16 samples.

Results

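The 7 sarcomeric myosin heavy chain genes that build skeletal muscle fibres, Myh1, Myh2, Myh3, Myh4, Myh7, Myh7b and Myh8, were examined in muscle and fat of exercised and then confined mice. They were found by symbol among the 55536 genes of the count table, using the GENCODE M21 names of the Ensembl identifiers, and all 7 were present. The study compared 4 female mice labelled Conditional MusMyD88-/- (mice 139, 958, 960 and 29), called knockout here, with 4 female mice labelled Cre-Control (mice 131, 137, 138 and 11), called control. MyD88 links Toll-like and interleukin-1 receptors to their inflammatory signalling kinases. Each mouse gave a library of red gastrocnemius, which the labels give as the muscle, and a library of visceral fat, so that there were 16 libraries in 4 groups of 4. Mice of both genotypes had 5 weeks of wheel running, after which their movement was restricted in a small cage for 8 days. The sources used here name neither the promoter of the Cre line nor the deleted exons nor the age of the mice, and the control label gives no Myd88 allele.

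Myosin heavy chain is the motor of the thick filament, and a muscle fibre is typed by the isoform it makes. Myh7 encodes the slow isoform of type I fibres, and Myh2, Myh1 and Myh4 encode the isoforms of fast IIA, IIX and IIB fibres, in the order from more oxidative to more glycolytic. Myh3 and Myh8 encode the embryonic and neonatal isoforms, which are made in developing and regenerating fibres, and Myh7b encodes a slow-tonic chain found at low levels in adult muscle and in specialised fibres.

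Total counts were 15203806 to 21747345 in the muscle libraries and 13242243 to 19114782 in the fat libraries. Myd88 itself was at 1.68 to 2.24 CPM (counts scaled to the total of the library) in knockout muscle and 2.04 to 3.42 CPM in control muscle, on 31 to 65 counts a library, and these ranges overlapped. In fat it was at 13.8 to 17.7 CPM in knockouts and 14.1 to 20.2 CPM in controls. Values per whole gene do not check the deletion where the deleted part is unknown. Some libraries stood apart from the rest of their group. The muscle of controls 131 and 11 held 27974 and 19833 CPM of the ribosomal RNA gene CT010467.1, against 16.8 to 35.2 CPM in the other muscle libraries. Upk1a, a gene of bladder epithelium, was at 539 CPM in the fat of control 138 and at no more than 2.40 CPM in the other fat libraries. The adipocyte gene Adipoq was at 605 CPM in the fat of control 138 and at 2077 to 3722 CPM in the other fat libraries. The labels give 1 library for each tissue of a mouse, so p-values measure the spread between mice. Counts are of bulk tissue, in which fewer fibres of a type and less RNA per fibre cannot be told apart.

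Of the 7 genes, 5 lie in 1 cluster of 230335 bases on the plus strand of chromosome 11 of the mouse genome (GRCm38). In order they are Myh3 (ENSMUSG00000020908, chr11:67078300-67102291), Myh2 (ENSMUSG00000033196, chr11:67171027-67197517), Myh1 (ENSMUSG00000056328, chr11:67200052-67224575), Myh4 (ENSMUSG00000057003, chr11:67238029-67260446) and Myh8 (ENSMUSG00000055775, chr11:67277124-67308634). Myh7 (ENSMUSG00000053093) lies on the minus strand at chr14:54970684-54994626 and Myh7b (ENSMUSG00000074652) on the plus strand at chr2:155611212-155634307. The 5 promoters below are shown because these genes are neighbours or, for Myh7, the slow counterpart, and because their levels differed widely. They come from RefSeq on GRCm38.p6, where all 7 genes had an entry, and end before the earlier of the RefSeq and GENCODE transcript starts. They read 5′ to 3′ on the strand of the gene and carry in capitals each E-box (CANNTG, bound by MyoD-family factors) and each MEF2 site that was found.
Myh4, chr11:67237562-67237811, plus strand: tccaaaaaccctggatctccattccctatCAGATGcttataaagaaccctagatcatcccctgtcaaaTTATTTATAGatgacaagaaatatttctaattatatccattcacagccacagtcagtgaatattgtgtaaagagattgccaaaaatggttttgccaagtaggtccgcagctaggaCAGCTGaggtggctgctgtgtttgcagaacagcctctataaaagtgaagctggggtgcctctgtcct
Myh1, chr11:67199852-67200051, plus strand: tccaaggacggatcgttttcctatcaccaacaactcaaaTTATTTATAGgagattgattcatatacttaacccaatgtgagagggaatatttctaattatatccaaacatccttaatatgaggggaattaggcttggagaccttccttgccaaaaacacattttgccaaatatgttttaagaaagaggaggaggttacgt
Myh8, chr11:67276874-67277123, plus strand: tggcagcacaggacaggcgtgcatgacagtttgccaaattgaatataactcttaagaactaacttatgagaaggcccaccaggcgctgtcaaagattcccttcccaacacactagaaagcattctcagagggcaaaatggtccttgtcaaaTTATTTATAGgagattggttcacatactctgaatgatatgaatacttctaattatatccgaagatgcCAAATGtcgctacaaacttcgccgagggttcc
Myh2, chr11:67170777-67171026, plus strand: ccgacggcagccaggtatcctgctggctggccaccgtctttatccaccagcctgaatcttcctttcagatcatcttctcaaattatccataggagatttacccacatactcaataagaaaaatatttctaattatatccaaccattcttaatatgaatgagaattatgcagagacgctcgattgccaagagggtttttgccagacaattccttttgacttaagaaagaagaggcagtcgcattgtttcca
Myh7, chr14:54994627-54994876, minus strand: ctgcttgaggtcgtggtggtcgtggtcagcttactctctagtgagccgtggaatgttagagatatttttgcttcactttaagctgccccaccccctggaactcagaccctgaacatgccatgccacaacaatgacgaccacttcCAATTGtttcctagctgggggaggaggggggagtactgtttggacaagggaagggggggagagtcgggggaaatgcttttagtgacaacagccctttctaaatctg
The MEF2 match was the same 10 bases, TTATTTATAG, in Myh4, Myh1 and Myh8, at 182, 211 and 99 bases before the RefSeq start. A MEF2 match occurred in 3 of the 7 promoters and in 2.92% of 32851 RefSeq promoters over the same window of 250 bases. Myh4, Myh1 and Myh8 lie in the same cluster and are close in sequence, so their matches cannot be counted as independent. An E-box occurred in 5 of the 7 and in 66.2% of all. The other motifs searched on both strands were CATTCC, found in 3 of the 7 and 12.6% of all, TATAAA, found in 4 and 12.4%, and GGAAA, found in 4 and 55.6%. The MEF2 match overlaps a TATAAA on the other strand in each of the 3 promoters. These letters are a description of the windows and were not tied to a level by any test. For Myh4, the RefSeq start lies 217 bases upstream of the GENCODE start. For Myh1 it lies 50 bases downstream, so only 200 bases are printed. Motifs were counted in the 250 bases before the RefSeq start. The CATTCC match of Myh1, 16 bases before that start, is therefore not in the printed stretch.

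Each slow-type gene, Myh7 and Myh7b, also encodes a microRNA in the same direction, and both are shown because their seeds are alike. The seeds, bases 2 to 8, are in capitals.
mmu-miR-499-5p, in Myh7b, chr2:155622893-155622913: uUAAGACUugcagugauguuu
mmu-miR-208b-3p, in Myh7, chr14:54975710-54975731: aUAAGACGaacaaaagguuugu
The seeds were equal at 6 of their 7 bases. Mature microRNAs were not measured in these libraries, and the annotated genes Mir208b and Mir499 had 4 and 1 counts over all muscle libraries.

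The labelled red gastrocnemius was dominated by the fast IIB isoform. Myh4 took 79.6 to 87.0% of the counts of the 7 genes in the knockouts and 76.1 to 86.0% in the controls. Levels between genes were compared per kilobase of annotated exon, over the 8 muscle libraries. On that scale Myh4 averaged 10572 ± 1264, Myh1 1262 ± 174, Myh2 528 ± 166 and Myh7 173 ± 62.6 CPM per kilobase (SD, n = 8). The order was thus IIB, IIX, IIA and slow. Then came a gap of 96.2-fold in the geometric mean to Myh7b, at 1.80 ± 0.66 CPM per kilobase. The developmental isoforms were lowest, with Myh3 at 1.16 ± 0.43 and Myh8 at 0.64 ± 0.35 CPM per kilobase (SD, n = 8 each). Each gene was above the next in 8 of 8 libraries, which gave the smallest p that a two-sided exact sign-flip test allows, 0.0078. The order came from the same libraries, so this p describes how steady each step was and does not test the order separately. The step between the 2 developmental isoforms depends on length. Myh8 has the longest annotated exons, 11772 bases, and per kilobase of coding sequence Myh3 and Myh8 changed places and did not differ beyond their spread (exact p = 0.773).

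**Figure D1:**
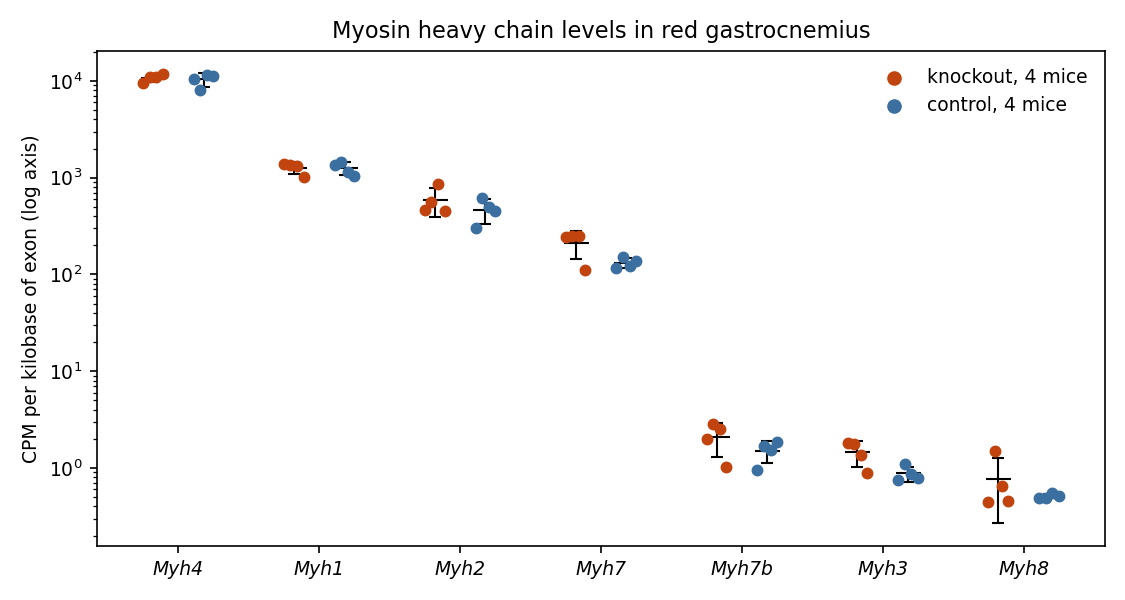
Level of each gene in muscle in CPM per kilobase of exon on a log axis, knockouts left of controls, with 1 point for each mouse and the mean ± SD of 4 mice. The 4 adult isoforms lie at 110 CPM per kilobase and above, and Myh7b, Myh3 and Myh8 below 3.

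The close sequence of these genes limits how well short reads separate them. Of all 51-base stretches of the annotated transcripts, as long as 1 read, 24.9% in Myh1, 22.4% in Myh2 and 18.5% in Myh4 also occur in another myosin heavy chain. The share was 15.3% in Myh7, all of it with the cardiac gene Myh6, and 10.8% in Myh8, 4.56% in Myh3 and 0 in Myh7b. The sources used here do not say how the counting treated such reads. Antisense genes overlap some members, and the strand setting of the counting is likewise not stated. Myhas, an antisense RNA over the end of Myh1, was at 20.5 to 40.1 CPM in knockout muscle and 26.7 to 34.8 CPM in control muscle, which is 0.379% of the counts of Myh1. Over Myh7 lie Mhrt, Gm29015 and Gm31251, with 17, 12 and 12 counts over all muscle libraries. Over Myh2 lies 9430073C21Rik, with 98. Myh7b shares 37 exon bases with the tail of Trpc4ap, which had 10451 counts in muscle against 1792 for Myh7b.

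No myosin gene passed the test between genotypes in muscle, and the slow isoform Myh7 came with a split among the knockouts. Myh7 was at 2109, 2129, 2132 and 952 CPM in knockouts 139, 958, 960 and 29, and at 1010, 1320, 1054 and 1185 CPM in controls 131, 137, 138 and 11. Thus 3 knockouts lay above all controls and knockout 29 lay below them all. This gave a log2 fold change of 0.61 ± 0.24 (SE), with an unadjusted p of 0.0303 and an adjusted p of 0.949 in the quasi-likelihood test of edgeR. Without knockout 29 it was 0.82 ± 0.11, with an adjusted p of 0.00954. In that fit Myh7 was the only one of the 7 called, and 0.0702% of 14242 genes were called. Knockout 29 was the lowest knockout for Myh7, so leaving it out had to raise the fold change.

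The ranges of the fast isoforms overlapped in part between genotypes. Myh2, the IIA isoform, was at 3345, 4046, 6191 and 3219 CPM in the knockouts and 2145, 4433, 3513 and 3262 CPM in the controls. Myh1, the IIX isoform, was at 8888, 8659, 8433 and 6415 CPM in the knockouts and 8573, 9330, 7251 and 6603 CPM in the controls. Myh4, the IIB isoform, was at 57466, 65938, 65435 and 70797 CPM in the knockouts and 62717, 48062, 70130 and 68246 CPM in the controls. Each list is in the order of mice used for Myh7. The log2 fold changes were 0.27 ± 0.26 for Myh2, -0.05 ± 0.14 for Myh1 and -0.02 ± 0.14 for Myh4 (SE), all at an adjusted p of at least 0.95 in edgeR. The signs of Myh1 and Myh4 changed when single mice were left out.

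The 3 low-level members had higher means in the knockouts, and none passed the test. Myh3, the embryonic isoform, was at 11.0, 10.6, 8.21 and 5.38 CPM in the knockouts and 4.54, 6.66, 5.27 and 4.77 CPM in the controls. Knockouts 139, 958 and 960 were above all controls, and knockout 29 was inside their range. This gave a log2 fold change of 0.65 ± 0.20 (SE), with an unadjusted p of 0.0082 and an adjusted p of 0.907 in edgeR. With no filter on low counts the adjusted p of Myh3 was 0.00279. That fit called 51 genes higher and 29 lower of 28344, against 0 higher and 2 lower of 14183 with the filter. Myh3 was the only member at an unadjusted p under 0.05 in it. Myh7b was at 13.3, 18.8, 16.9 and 6.81 CPM in the knockouts and 6.38, 11.2, 10.3 and 12.2 CPM in the controls, and knockout 29 was again the lowest knockout (log2 fold change 0.40 ± 0.33, adjusted p = 0.950 in edgeR). Myh8, the neonatal isoform, was at 5.30, 17.6, 7.75 and 5.38 CPM in the knockouts and 5.79, 5.81, 6.53 and 6.07 CPM in the controls. Knockout 958 set its mean: the log2 fold change was 0.52 ± 0.42 with this mouse and -0.053 without it.

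In all, 0 of 7 members were called, against 0.0141% of 14183 genes tested, and DESeq2 also called 0. An unadjusted p under 0.05 was given to 2 members, Myh7 and Myh3, and to 5.04% of genes. The knockout and control libraries overlapped for all 7 members, while 4.27% of genes had no overlap. The median log2 fold change of all genes was 0.0028.

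**Figure D2:**
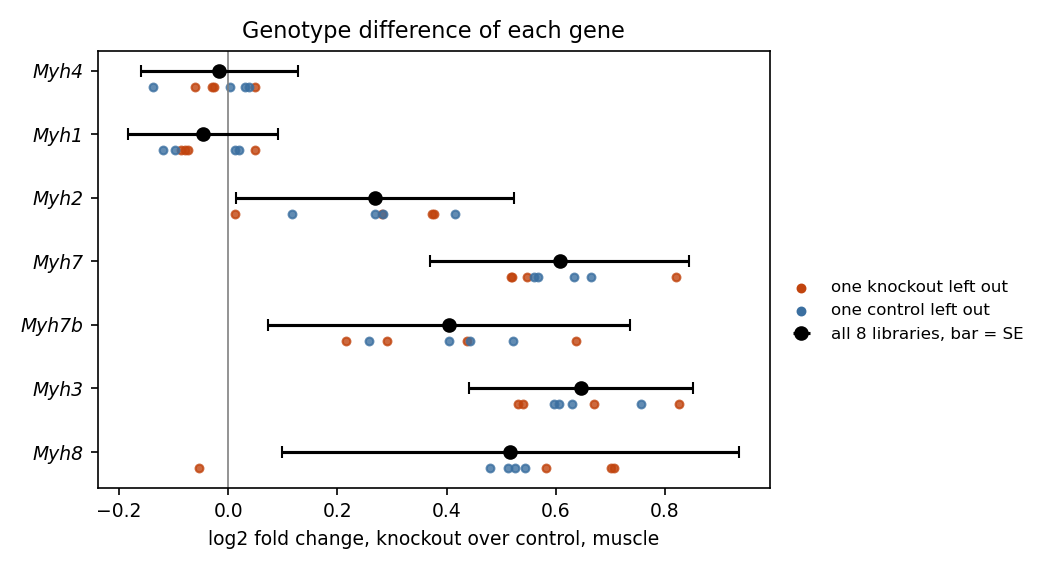
Log2 fold change in muscle, knockout over control, with its SE (black) and the values obtained when each knockout or control was left out (coloured points). Myh2, Myh7, Myh7b and Myh3 stay above 0 throughout, and Myh8 falls to -0.053 without knockout 958.

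The share of each isoform in the total of the 7 genes does not depend on the level of other transcripts. Myh7 made up 2.94, 2.63, 2.59 and 1.17% in knockouts 139, 958, 960 and 29, and 1.36, 2.09, 1.29 and 1.49% in controls 131, 137, 138 and 11. Its mean was 2.33 ± 0.79% in knockouts and 1.56 ± 0.37% in controls (SD, n = 4 each, two-sided exact permutation p = 0.143, where 0.0286 is the smallest p that 4 against 4 allow). Without knockout 29 its p was 0.0571, the smallest that 3 against 4 allow. The mean share of Myh2 was 5.29 ± 1.56% in knockouts and 4.57 ± 1.74% in controls (exact p = 0.514). For Myh1 it was 10.3 ± 1.85% in knockouts and 10.9 ± 2.96% in controls (exact p = 0.743). For Myh4 it was 82.0 ± 3.4% in knockouts and 83.0 ± 4.66% in controls (exact p = 0.771). The shares of Myh3, Myh7b and Myh8 had exact p of 0.143, 0.314 and 0.686. Control 137 had the lowest share of Myh4, 76.1%, and the highest share of Myh1, 14.8%. Knockout 29 had the highest share of Myh4, 87.0%, and the lowest of Myh1 and of Myh7. For each of the 4 adult isoforms, the range among mice of either genotype was wider than the difference between the genotype means.

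**Figure D3:**
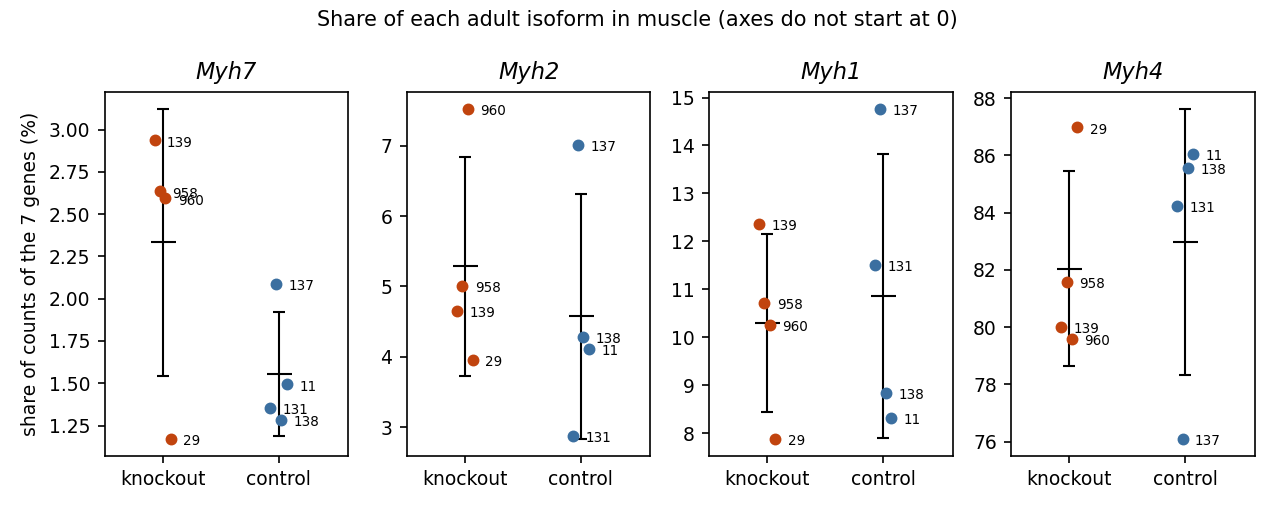
Share of each adult isoform in the counts of the 7 genes in muscle, with 1 point for each mouse and the mean ± SD of 4 knockouts (left) and 4 controls (right). The axes do not start at 0, and knockout 29 lies apart from the other knockouts for Myh7, at 1.17% against 2.59 to 2.94%.

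Across the 8 muscle libraries the genes most like Myh7 were Atp2a2, the calcium pump of slow and cardiac muscle (Pearson r = 0.98), Tnnt1, the slow troponin T (0.97), Myl2, the slow regulatory light chain (0.96), Nudt13 (0.95) and Crim1 (0.95). These were taken from 8559 protein-coding genes of at least 5 CPM, and the libraries share the genotype split and the mice. Atp2a2 was at 694, 793, 747 and 349 CPM in knockouts 139, 958, 960 and 29, and at 339, 432, 415 and 456 CPM in controls 131, 137, 138 and 11. As for Myh7, 3 knockouts were above all controls and knockout 29 was not. Atp2a2 was picked for its likeness to Myh7 over these same libraries, so this shared pattern follows from the choice and is not separate support.

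Of 14 listed slow-fibre sarcomere and calcium genes, 12 had a positive and 2 a negative log2 fold change, with a median of 0.49, and none was called. The smallest p-values in edgeR belonged to Myl2 (0.59 ± 0.24), Atp2a2 (0.58 ± 0.24) and Myl3, the slow essential light chain (0.50 ± 0.22), each at an adjusted p of 0.949. Without knockout 29, 5 of the 14 were called, all higher in the knockouts, against 0.0702% of the 14242 genes of that fit, where 6 were higher and 4 lower. They were Tnnt1 (0.77), Tnnc1, the slow troponin C (0.82), Tnni1, the slow troponin I (0.83), Myl2 (0.79) and Atp2a2 (0.79), with an adjusted p of 0.0095 to 0.0416. Of the single mice, only knockout 29, the lowest knockout for Myh7, was left out for these lists. Tnnt1, Myl2 and Atp2a2 were also among the genes most like Myh7, so these calls are not separate support. Of 14 listed fast-fibre genes, 2 had a positive and 12 a negative log2 fold change, with a median of -0.08, and none was called. The smallest p-values belonged to Actn3, the fast alpha-actinin (-0.19 ± 0.12), Tnnt3, the fast troponin T (-0.16 ± 0.12) and Tpm1, a tropomyosin (-0.19 ± 0.14), each at an adjusted p of 0.949 in edgeR.

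Of 28 listed regulators of fibre type, 10 had a positive and 18 a negative log2 fold change, with a median of -0.05, and none was called by edgeR. Ppargc1a, the coactivator of mitochondrial and slow-fibre genes, was at 47.5 to 55.6 CPM in knockouts and 57.1 to 86.3 CPM in controls, without overlap. It had a log2 fold change of -0.58 ± 0.10 (SE), at an adjusted p of 0.128 in edgeR and 0.0004 in DESeq2. Tbx15, a factor of glycolytic fibres, and Eya4, a cofactor of homeobox factors, were next, at -0.16 ± 0.08 and -0.22 ± 0.12, with adjusted p of 0.949 in edgeR. Ppargc1a was the only one of the 28 that DESeq2 called, and over all 14183 genes it called 1 higher and 9 lower.

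The fast members had their own nearest genes. Myh2 was most like Got2, the mitochondrial aspartate aminotransferase (r = 0.98), then Dctn6, Dhrs3, Aldh2 and Slc25a3 (0.96 to 0.94). Myh1 was most like Stag1 (0.97), Stau2, Btbd8 and Snrnp200 (0.96 to 0.93). Myh4 was most like Dnajb2 and Mylpf, the fast regulatory light chain (0.94 each), then Zfp532, Surf4 and Ufsp1 (0.94 to 0.90). Among the members, Myh3 and Myh7 had r = 0.93, Myh7 and Myh7b 0.88, and Myh1 and Myh4 -0.75, all over the same 8 libraries. These values describe the libraries and carry no test.

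Of 18 listed genes of developing and regenerating muscle, which bear on Myh3 and Myh8, 12 passed the filter on low counts. Their log2 fold change was positive for 8 and negative for 4, with a median of 0.10, and none was called. Myf5, a myogenic factor of satellite cells, was at 1.38 to 1.72 CPM in knockouts and 0.58 to 0.94 CPM in controls (0.86 ± 0.24, adjusted p = 0.907 in edgeR). H19, an imprinted RNA, had 0.44 ± 0.15 and Ncam1, an adhesion molecule of denervated and immature fibres, 0.20 ± 0.10. Mymk and Mymx, the fusogens of regenerating muscle, had 2 and 1 counts over all muscle libraries, and the fetal receptor subunit Chrng had 5. Of the 7 other myosin heavy chains, 6 were tested, 2 with a positive and 4 with a negative log2 fold change, a median of -0.08 and none called. The smallest p-values were those of smooth muscle Myh11 (-0.19 ± 0.10) and of the non-muscle chains Myh9 (0.16 ± 0.10) and Myh10 (0.15 ± 0.17). Cardiac Myh6, which also occurs in spindle fibres, was at 1.66 to 3.16 CPM in knockouts and 1.25 to 3.99 CPM in controls.

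Markers of other cells were examined beside these differences. The 4 muscle spindle markers summed to 2.97 to 4.69 CPM in knockouts and 2.30 to 3.25 CPM in controls, with Calb1 at or near 0, and the 6 cardiac markers to 2.85 to 5.29 CPM in knockouts and 4.01 to 7.06 CPM in controls, with Nppa, Nppb and Myl7 at 0. The 5 satellite cell markers summed to 37.9 to 55.1 CPM in knockouts and 41.1 to 44.5 CPM in controls. The 5 macrophage markers, all with a positive fold change, summed to 30.0 to 40.5 CPM in knockouts and 16.7 to 27.7 CPM in controls. These sums did not overlap, while 4.27% of single genes tested had no overlap. An unadjusted edgeR p under 0.05 was given to 3 of the 5, against 5.04% of genes, and none was called. The 5 fibroblast markers, also all positive, summed to 193 to 290 CPM in knockouts and 136 to 250 CPM in controls. The 5 adipocyte markers summed to 148 to 282 CPM in knockouts and 158 to 194 CPM in controls, with 3 of 5 positive, a median log2 fold change of 0.30 and none called. Without knockout 29, all 5 were positive with a median of 0.58, and none was called. Of the 5 smooth muscle markers, 4 were tested, 1 positive and 3 negative, with a median log2 fold change of -0.25. The 4 neuromuscular junction markers were 2 positive and 2 negative, with a median of 0.01. None of either set was called. The part of these cells in the differences of Myh3, Myh7, Myh7b and the slow-fibre genes was not tested. Without the 2 controls rich in CT010467.1, the log2 fold change of Myh7 was 0.59 ± 0.35 and that of Myh3 0.52 ± 0.27 (SE).

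Visceral fat held the same 4 adult isoforms at a trace. The 7 genes together were at 3750, 1051, 269 and 2077 CPM in the fat of knockouts 139, 958, 960 and 29, and at 746, 280, 1943 and 928 CPM in the fat of controls 131, 137, 138 and 11. The level thus varied widely within both genotypes. All 7 were called higher in muscle than in fat, against 35.7% of 17084 genes, with a log2 fold change of 5.66 ± 0.56 (SE) for Myh8 to 7.11 ± 0.59 for Myh4. The result was also 7 of 7 with the mouse as a replicate block. Myh3, Myh7b and Myh8 did not pass the filter on low counts in fat alone. They entered this test through their muscle counts, so their calls follow in part from the filter and are not separate support. On another scale, that of mean CPM without the TMM factors (edgeR's scaling for library composition), the level in muscle was 53.1 to 56.0 times that in fat for Myh7, Myh1, Myh4 and Myh2. The ratio was 49.6 for Myh3, 32.3 for Myh7b and 19.1 for Myh8, on 17, 44 and 44 counts over all fat libraries, and 28 of the 44 counts of Myh8 were from control 138. These ratios are smaller than the fitted fold changes, which use TMM factors and average the genotypes on the log2 scale. Without this mouse, the log2 fold change of Myh8 between muscle and fat was 7.02 ± 0.45 (SE).

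Between genotypes in fat, 4 of the 7 genes passed the filter on low counts and none was called by edgeR, against 0.00613% of 16323 genes, while 1305 genes were at an unadjusted p under 0.05. The log2 fold changes were 1.48 ± 0.71 for Myh7, 1.04 ± 0.70 for Myh1, 0.97 ± 0.79 for Myh4 and 0.92 ± 0.66 for Myh2 (SE), with an adjusted p of 0.627 for Myh7 in edgeR. DESeq2 called none of the 4 either. Knockout 139 carried most of this difference, and without it the values were 0.46, 0.25, 0.30 and 0.11. Without control 138 they were 1.64, 1.33, 1.41 and 1.43. In the edgeR test of whether the genotype difference itself differed between muscle and fat, 0 of 7 members were called, against 0% of 17084 genes. In that test 1229 genes but no member had an unadjusted p under 0.05.

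The isoform mixture in fat followed that of the muscle of the same mouse. Myh4 made up 80.8, 80.9, 79.1 and 85.4% of the family in the fat of the knockouts and 81.5, 71.2, 84.0 and 85.7% in the fat of the controls, in the same order of mice. Control 137 had the lowest share of Myh4 in fat, as in muscle. Over the 8 mice, the share in fat and the share in muscle had a Pearson r of 0.93 for Myh4, 0.93 for Myh1, 0.92 for Myh2 and 0.89 for Myh7. Spearman's rho was 0.98, 0.86, 0.86 and 0.83. These relations were chosen after the values were seen. The 4 shares make up nearly the whole of a fixed total in each library, so the 4 relations are not independent of each other. The exact permutation p-values of r, Benjamini-Hochberg adjusted over 5 relations, were 0.0007, 0.0040, 0.0117 and 0.0117, and those of rho were 0.0020, 0.0134, 0.0134 and 0.0154. Without the 2 mice farthest from the median in muscle, r was 0.90, 0.88, 0.60 and 0.88, so that the relation for Myh2 rests in part on mice 137 and 960. Within a genotype there are 4 mice, too few for such a value. In Euclidean distance over the centred log2 levels of the 4 adult isoforms, the nearest muscle library was that of the same mouse for 6 of 8 fat libraries. The fat of knockout 139 was nearest to the muscle of knockout 958, and the fat of knockout 29 to that of control 138.

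**Figure D4:**
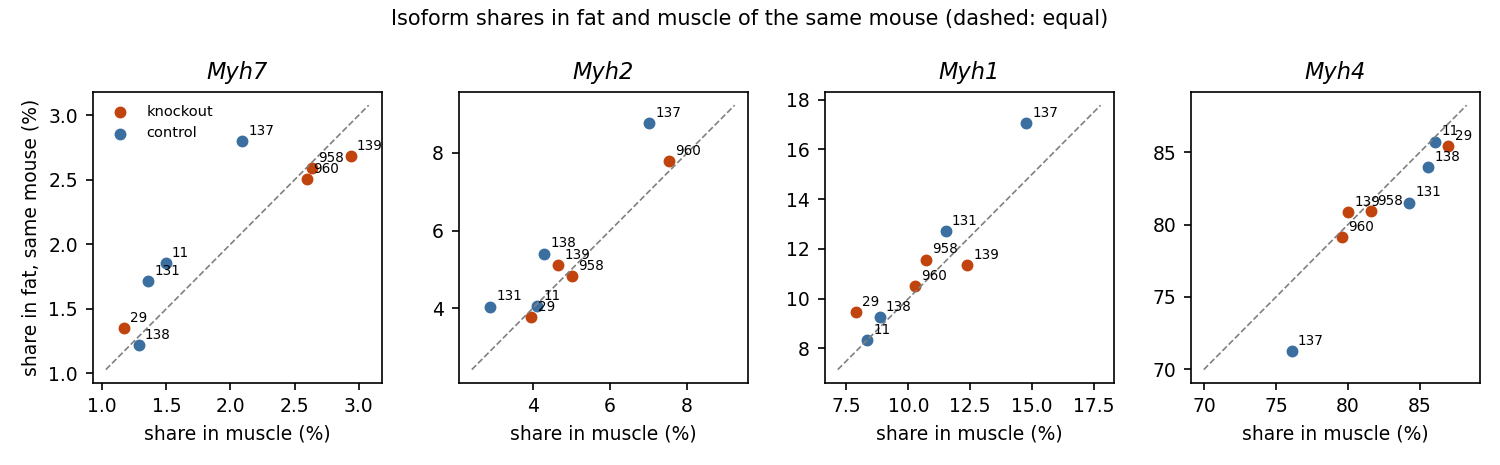
Share of each adult isoform in the 7 genes in fat (vertical axis) against muscle of the same mouse (horizontal axis), with 1 point for each mouse and a dashed line where both are equal. The points of Myh4 run from control 137, lowest in both tissues, to knockout 29 and control 11.

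Mean shares in fat and muscle lay close together. Myh4 had 81.1% in fat and 82.5% in muscle, a difference of -1.42 points that was negative in 7 of 8 mice (two-sided exact sign-flip p = 0.0469). Without the pairing by mouse, the permutation p was 0.524. Without knockout 139 the exact p was 0.0156, and leaving out any other single mouse gave 0.0625 to 0.0938. Myh1 had 11.3% in fat and 10.6% in muscle (exact p = 0.0859), Myh2 5.47% in fat and 4.93% in muscle (exact p = 0.0781) and Myh7 2.09% in fat and 1.94% in muscle (exact p = 0.258). Myh7b had 0.0467% in fat and 0.0156% in muscle (exact p = 0.0156), which rests on 3 to 8 counts in each fat library. The exact p was 0.750 for Myh3 and 0.164 for Myh8. None of these p-values was adjusted over the 7 genes.

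Other muscle fibre transcripts appeared in fat with the myosins. The 7 genes in fat were at 5.22, 1.30, 0.328 and 2.55% of their level in the muscle of the same mouse in knockouts 139, 958, 960 and 29, and at 1.0, 0.443, 2.37 and 1.17% in controls 131, 137, 138 and 11. Titin, Ttn, the giant sarcomere spring, was at 4.95, 1.38, 0.335 and 3.01% in the knockouts and 1.01, 0.417, 2.32 and 1.24% in the controls. The myosins and titin thus had close percentages in each mouse. Myoglobin, Mb, was at 2.68, 1.33, 0.336 and 2.45% in the knockouts and 1.04, 0.514, 2.13 and 1.07% in the controls. Muscle creatine kinase, Ckm, was at 2.31, 1.12, 0.289 and 2.06% in the knockouts and 0.895, 0.514, 2.77 and 1.14% in the controls, above the myosins in controls 137 and 138. Skeletal actin, Acta1, was at 3.19, 1.42, 0.591 and 2.45% in the knockouts and 1.37, 1.55, 3.71 and 1.24% in the controls. It was above the myosins in 6 of 8 mice and below them in knockouts 139 and 29. Over the 8 fat libraries, the summed level of the 7 genes and that of Acta1 plus Ckm had r = 0.92 and rho = 0.86 on the log2 scale, and 0.94 without mice 138 and 960. Whether muscle attached to or carried into the fat samples is the source was not tested.

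**Figure D5:**
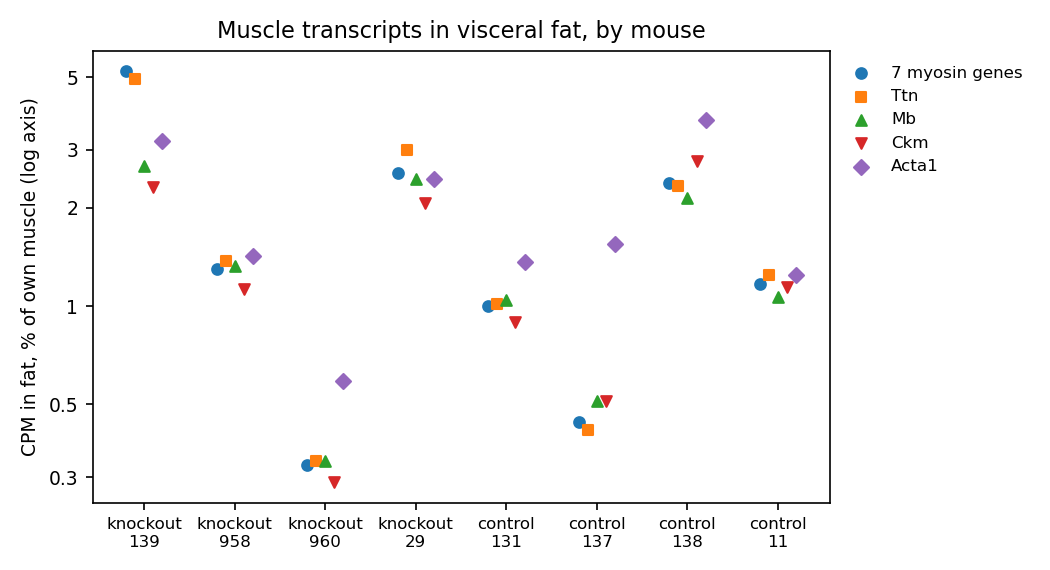
CPM in fat as a percentage of CPM in the muscle of the same mouse, on a log axis, for the 7 myosin genes together and for Ttn, Mb, Ckm and Acta1. Knockout 139 is highest for the myosins at 5.22% and knockout 960 lowest at 0.328%.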

How the data were processed

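Total RNA of muscle and fat was depleted of ribosomal RNA, made into stranded libraries and sequenced, per the labels' protocols. The authors deposited raw counts of reads per Ensembl gene, unscaled, for 55536 genes. STAR 2.7.0f, featureCounts 1.6.3, DESeq2 1.22.2 and the build GRCm38 are named with no role or order, per the submitters' processing notes. Not given in those notes are the annotation release, the strand setting and the treatment of multi-mapping reads. Names, exon lengths and positions were taken from GENCODE M21 on GRCm38, in which all 55536 identifiers were found. The 7 members and the gene lists were chosen with earlier results of these data known.

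Genotype was tested within each tissue, and tissue and the interaction over all 16 libraries, with edgeR 4.0.16 in R 4.3.3 (quasi-likelihood F test, TMM scaling, filterByExpr, robust estimation). The threshold was a p of 0.05 after Benjamini-Hochberg adjustment over every gene tested. Fold changes are knockout over control or muscle over fat, and the SE is the absolute log2 fold change over the square root of F. Printed levels are CPM of total counts without TMM factors. Shares are each gene's counts over those of the 7 genes. They were tested by exact permutation (scipy 1.17.1), with 70 assignments between genotypes and 256 sign flips between tissues of a mouse. The p-values of these share tests were not adjusted for the number of genes. Reads have no molecular identifiers. Likeness is Pearson r of log2(CPM + 0.5).

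Named beside the members were, by rule, the 3 genes of each list with the smallest p, any that passed, the 5 genes most like each adult isoform, and overlapping genes. Of the genes most like Myh1, 1 is not reported here. Chosen after their values were seen were CT010467.1, Upk1a, Adipoq, the 5 slow-fibre genes called without knockout 29, and Mymk, Mymx, Chrng and Myh6. The pairing of tissues comes from the mouse number in the subject labels. Deviations of paired libraries from their group means correlated at -0.02 to 0.16 over 17084 genes. Alternatives were RLE scaling, DESeq2 1.42.0, no filter on low counts, 1 fit of 16 libraries, the mouse as replicate block, other units of share and each mouse left out. Leaving out controls 131 and 11 with knockout 29, leaving out control 137 with knockout 29, coding length, and the relations of shares between fat and muscle were chosen after seeing the data. The procedure was tested on simulated data.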

Additional observations from a re-analysis of the deposited data

Results flagged for a closer look

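In 4 of 44 groups of 4 libraries examined, 1 library lay far from the other 3, a gap that chance gives in about 1 group in 20. The groups share mice and hold genes that vary together, so the count of 4 cannot be judged against that rate. The level of Myh7 in muscle was 952 CPM in knockout 29, against 2109 to 2132 CPM in the other knockouts. The share of Myh7 in the family in fat was 1.35% in the same mouse, against 2.51 to 2.68% in the other knockouts. The level of Myh2 in fat was 105 CPM in control 138, against 24.5 to 37.5 CPM in the other controls. The share of Myh3 in muscle was 0.0105% in control 137, against 0.0060 to 0.0064% in the other controls.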

How the results depend on the processing

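In muscle, 1 member was called without a filter on low counts (Myh3), and 0 to 1 when single mice were left out (Myh7 without knockout 29). All other settings run for the genotype tests called 0. Over all genes in muscle, 2 were called lower, against 1 higher and 9 lower with DESeq2, 51 higher and 29 lower without the filter, and 6 higher and 4 lower without knockout 29. In fat 1 was called lower, against 33 higher and 39 lower with DESeq2, and 0 to 5 lower with single mice left out. Between tissues the call was 7 of 7 with the mouse as replicate block and with each mouse left out. It was 6 with DESeq2, which gave no p for Myh7. Myh3, Myh7b and Myh8 entered this test through their muscle counts. The replicate block changed no call of a member in the tissue or interaction test. By CPM or per kilobase of coding sequence, 5 of 7 members kept their rank. Log2 fold changes of small size changed sign. Over the mice left out, Myh1 in muscle ran from -0.12 to 0.050, Myh4 from -0.14 to 0.049 and Myh8 from -0.053 to 0.71. Without controls 131 and 11 Myh4 was at 0.098, and without these and knockout 29 Myh4 was at 0.054 and Myh1 at 0.025. Differences in share in muscle, knockout minus control in percentage points, ran from -1.40 to 0.74 for Myh1, from -0.035 to 1.53 for Myh2, from -3.24 to 0.078 for Myh4 and from -0.00035 to 0.0047 for Myh8. Without control 137 and knockout 29 Myh1 was at 1.55. Without controls 131 and 11 Myh2 was at -0.36 and Myh4 at 1.21. As a centred log ratio, in log2 units and not percentage points, Myh2 was at -0.035. The difference of fat minus muscle ran from 0.47 to 0.94 for Myh1 and from -1.74 to -0.93 for Myh4. For Myh3 it ran from -0.00048 to 0.0026. Without knockout 139, Myh1 had an unadjusted exact sign-flip p of 0.0156. The Myh4 difference was -1.42 with no replicate block, at an unadjusted permutation p of 0.524. The cause of these changes was not tested. With 17 to 44 counts in fat the shares of Myh3, Myh7b and Myh8 there are limited by depth.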
